A study of Mus musculus with 19 samples.

Results

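The genes described here are the 7 mammalian sirtuins, Sirt1 to Sirt7, and 3 enzymes that act on NAD or nicotinamide, Nampt, Nnmt and Cd38. They were taken by symbol, from a list drawn up with earlier results of these data known. All 10 were found among the 24537 genes of the deposited count table, and all 10 passed the filter on low counts that left 12269 genes to be tested. Their transcripts were measured by sequencing poly(A) RNA of hepatocytes, the liver cells that carry out most of its metabolism, with 1 library per mouse as the labels read. The 10 young mice were labelled 5 months old and the 9 old mice 24 months old. All were male wild-type C57BL/6J mice with no treatment named. The cells came from a perfused liver, so a library can hold other liver cells that stayed with the hepatocytes. The mice were culled on 2 days that lay 23 days apart. The first day held 5 young mice (140 days old from the labelled birth date) and 5 old mice (719 days), and the second held 5 young mice (163 days) and 4 old mice (742 days). The comparison asks how the transcripts of these genes differ with age.

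Sirtuins are enzymes that split NAD to remove acetyl or other acyl groups from proteins, and they release nicotinamide in doing so. Hepatocytes rebuild NAD from nicotinamide through Nampt and also make it from tryptophan. Nnmt withdraws nicotinamide by methylating it, and Cd38 is an NAD-degrading ectoenzyme known mostly from immune cells. Sirt1, Sirt6 and Sirt7 are mainly nuclear proteins, Sirt2 is mainly cytosolic, and Sirt3, Sirt4 and Sirt5 are mitochondrial.

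Of the 10 genes, Sirt6 and Cd38 rose with age and Sirt4 fell, at an adjusted p under 0.05 in edgeR's quasi-likelihood test with cull day as a covariate. Over all genes tested, 30.9% passed that threshold, 16.3% higher and 14.5% lower in old mice, so 3 of 10 lay close to the background. The median log2 fold change was -0.05 over the 10 genes and -0.0034 over all genes tested. The fold changes of 5 of the 10 had the same sign on both cull days, against 74.8% of genes compared. Fitted without the 3 young libraries described next, 5 of the 10 passed, with Sirt2 and Sirt3 also lower, beside 27.2% of all genes in that fit. Those 3 libraries were set apart by levels in these data, not by their labels. Without old 1187 as well the same number passed, beside 28.3%. By other fits 2 passed with unscaled library totals (26.6% of all genes) and 2, Sirt6 and Nnmt, with a score of other-cell markers in the model (11.5%). On the first cull day alone edgeR called none of the 10 (3.67% of all genes), with 3 at a raw p under 0.05, and on the second alone it called 1, Cd38 (19.3%).

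Library totals over genes ran from 17381439 to 20287628.5 counts. The young libraries 1184, 1186 and 1188, all from the first cull day, stood apart from the other 16. The acute phase gene Saa1 lay between 3188 and 8281 CPM (read counts brought to the same scale in every library) in those 3 and between 15.8 and 596 CPM in the others. Saa2, its close relative, lay between 3659 and 10148 CPM against 9.39 to 481 CPM, and Lcn2, another acute phase gene, between 207 and 1125 CPM against 0.546 to 133 CPM. These 3 genes were chosen after their values were seen. Alb, the hepatocyte gene for serum albumin, was at 94657 ± 23038 CPM in young libraries (SD, n = 10) and 128990 ± 23383 CPM in old ones (SD, n = 9), and none of 10 hepatocyte markers was at 0. Alb had a log2 fold change of 0.47 (adjusted p = 0.0262) with all libraries and 0.23 (adjusted p = 0.167) without the 3 young ones, and 4 of the 10 hepatocyte markers, Tat, Cps1, Hnf4a and Pck1, fell, of which Hnf4a (adjusted p = 0.0726) and Pck1 (adjusted p = 0.0983) missed the threshold without those 3. Hnf4a also missed it with the other-cell score in the model, at -0.16 (adjusted p = 0.398) against -0.30. Markers of other liver cells were present too, and higher in old mice: 12 of 12 macrophage, 12 of 12 stellate and 8 of 12 endothelial markers rose. Without old 1187, 2 of 12, 9 of 12 and 7 of 12 did, and without the 3 young libraries as well 12, 12 and 8 did again. Their summed level ran from 100 to 486 CPM in young and 68.0 to 3313 CPM in old libraries for macrophages, from 41.7 to 113 and 107 to 406 CPM for stellate cells, and from 192 to 349 and 202 to 654 CPM for endothelial cells. Old library 1187 held the highest sum of each, and without it the old macrophage sums reached 807 CPM. No marker in these 3 lists was at 0. These markers are part of the other-cell score. With that score in the model no macrophage or endothelial marker rose, and 9 of 12 and 1 of 12 fell. Of the stellate markers 7 of 12 still rose. In bulk RNA, more cells of a type and more RNA per cell cannot be told apart.

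**Figure D1:**
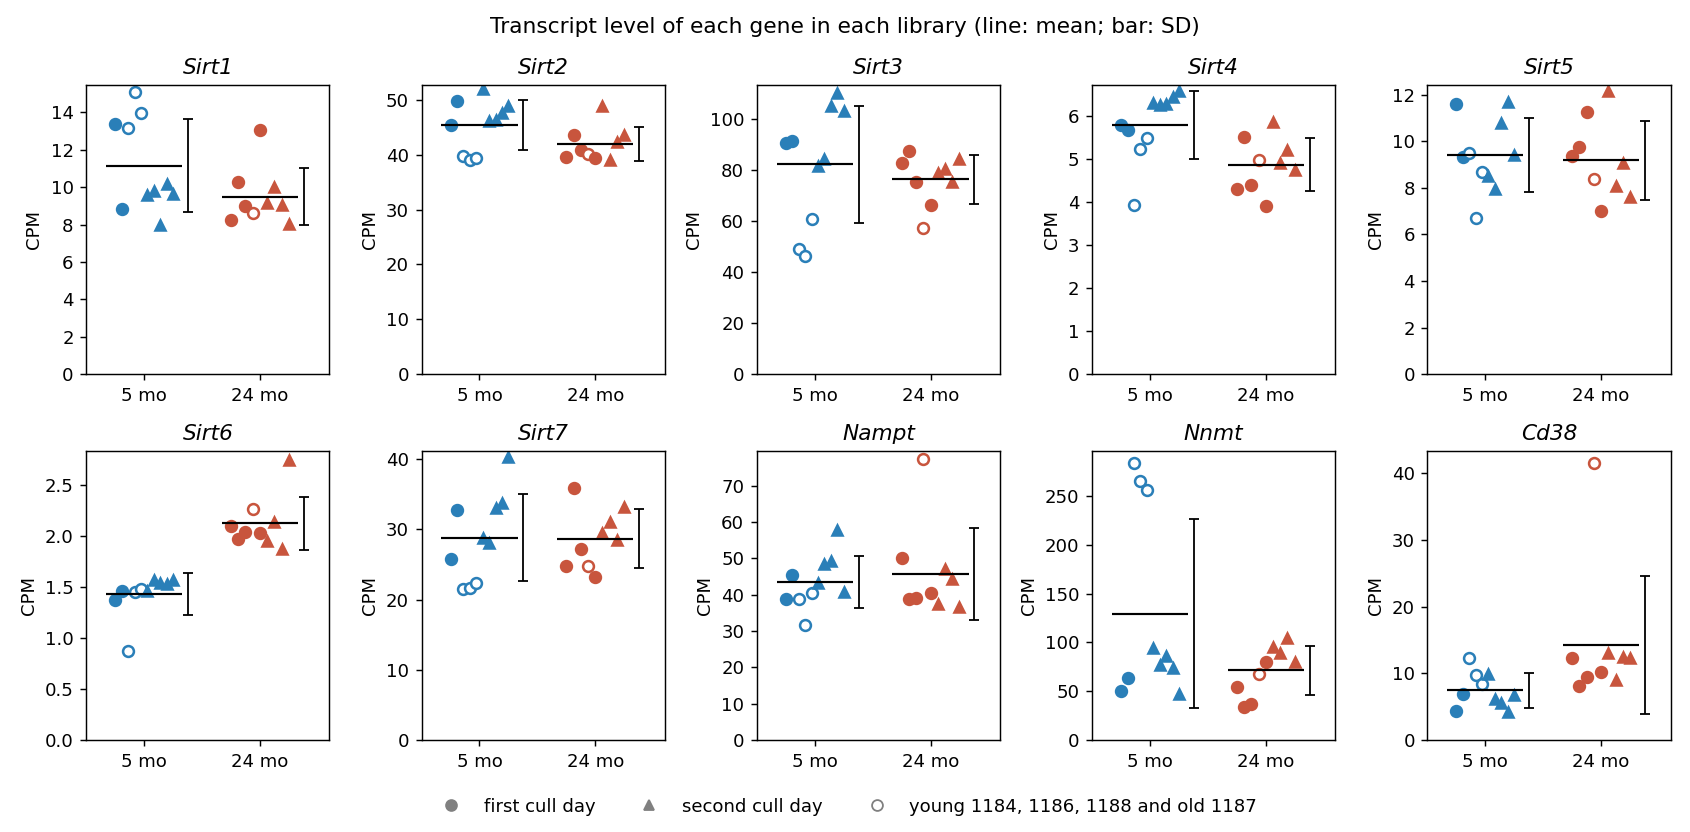
Level of each of the 10 genes in CPM (vertical axis, from 0) in each of 10 young (5 mo) and 9 old (24 mo) libraries, with the mean as a line and the SD as a bar. Circles are the first cull day and triangles the second, and open symbols are young 1184, 1186 and 1188 and old 1187. The old Sirt6 values, 1.87 to 2.74 CPM, all lie above the young ones, 0.875 to 1.57 CPM.

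Among the nuclear sirtuins, Sirt6 separated the ages. Sirt6 (chr10:81621786-81627608 on mm10, minus strand) encodes a deacetylase of histone H3 known for roles in DNA repair and glucose metabolism. It had a lowest, median and highest level of 0.875, 1.47 and 1.57 CPM in young libraries and 1.87, 2.04 and 2.74 CPM in old ones. Every old library lay above every young one, which held for 0.994% of genes tested. The counts behind these values were low, 16 to 32 in young and 37.5 to 52 in old libraries. Young mice averaged 1.43 ± 0.205 CPM (SD, n = 10) against 2.12 ± 0.259 CPM (SD, n = 9) in old mice. The log2 fold change was 0.58 (SE 0.115, edgeR adjusted p = 0.00157). An exact two-sided permutation test that relabelled mice within cull days gave p = 3.15e-05, the smallest that 31752 relabellings allow. The fold change passed the threshold whichever single library was left out, from 0.52 to 0.61, with adjusted p from 0.00184 to 0.00459. With the other-cell score in the model it was 0.56 (adjusted p = 0.0192), so the value moved little when that score was held. Each cull day alone gave a similar value that missed the threshold, 0.65 on the first (adjusted p = 0.0751) and 0.51 on the second (adjusted p = 0.0602).

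Sirt1, a deacetylase of transcription regulators such as Foxo proteins and Ppargc1a, was at 7.99, 9.97 and 15.1 CPM (lowest, median, highest) in young libraries and 8.02, 9.06 and 13.0 CPM in old ones. The high young values were those of 1184, 1186 and 1188, between 13.2 and 15.1 CPM, together with 1180 at 13.4 CPM, and the ages overlapped. Its log2 fold change was -0.23 (SE 0.106, edgeR adjusted p = 0.100), and without the 3 young libraries it was -0.10 (adjusted p = 0.519). On the first cull day alone it was -0.39 and on the second -0.05. Sirt7, a deacetylase linked to ribosomal RNA synthesis, was at 21.5, 28.4 and 40.3 CPM in young libraries and 23.2, 28.5 and 36.0 CPM in old ones. Again the 3 young libraries lay at one end, here the low one, at 21.5 to 22.4 CPM against 25.8 to 40.3 CPM in the other 7. The log2 fold change of Sirt7 was 0.02 (SE 0.100, adjusted p = 0.893) with all libraries and -0.11 (adjusted p = 0.463) without those 3.

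Sirt2, a mainly cytosolic deacetylase known for acting on tubulin, varied little between libraries. It was at 39.0, 46.2 and 52.1 CPM (lowest, median, highest) in young libraries and 39.1, 40.8 and 48.9 CPM in old ones. After age and cull day means were taken out, the SD of its log2 level was 0.112, lower than in all but 3.97% of genes tested. The 3 young libraries lay together at 39.0 to 39.8 CPM, at the low end of the old range (1186 just below it), and the other 7 young ones at 45.5 to 52.1 CPM. The log2 fold change was -0.11 (SE 0.0570, adjusted p = 0.162) with all libraries and -0.18 (SE 0.0577, adjusted p = 0.0310) without the 3 young ones, with a negative sign in every age fit run. It was -0.058 with the other-cell score in the model (adjusted p = 0.651) and -0.062 with unscaled library totals (adjusted p = 0.511).

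The mitochondrial sirtuins fell into a variable and abundant gene, Sirt3, and a pair of less abundant ones, Sirt4 and Sirt5. Sirt3, the main deacetylase of mitochondrial proteins, was at 46.4, 87.7 and 110 CPM in young libraries and 57.2, 78.8 and 87.6 CPM in old ones. On the first cull day the young values were 90.9 (1180), 91.6 (1182), 49.2 (1184), 46.4 (1186) and 61.0 CPM (1188), so the 3 libraries with high Saa1 were also those with low Sirt3. On the second cull day the 5 young values ran from 81.8 to 110 CPM and the 4 old ones from 75.4 to 84.6 CPM, with 3 old libraries below all young ones. The log2 fold change of Sirt3 was -0.07 (SE 0.132, adjusted p = 0.729) with all 19 libraries. It was -0.29 (SE 0.0918, adjusted p = 0.0297) without the 3 young ones, and -0.26 (adjusted p = 0.0231) when old 1187, the lowest old library, was left out as well. With the other-cell score in the model the sign turned, to 0.28 (adjusted p = 0.184). Of 5973 annotated exon bases of Sirt3, 5.7% are shared with Psmd13 and 7% with Ric8a on the opposite strand. The transcript listed for Sirt3 in the count table is 1414 bases long, and the shared part of it was not measured. Reads in a shared stretch may count for either gene, since the strand setting of the counting was not given in the sources used here.

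Sirt4 (chr5:115478010-115484484, minus strand) removes lipoyl and other acyl groups and inhibits glutamate and pyruvate dehydrogenases. It was at 3.94, 6.03 and 6.57 CPM in young libraries and 3.91, 4.91 and 5.87 CPM in old ones. On the second cull day its 5 young libraries sat between 6.27 and 6.57 CPM and its 4 old ones between 4.75 and 5.87 CPM. Every old library of that day lay below every young one, as for 7.84% of genes tested. On the first day the ages overlapped, with young values of 3.94 to 5.79 CPM and old values of 3.91 to 5.51 CPM. Young mice averaged 5.80 ± 0.789 CPM (SD, n = 10) against 4.87 ± 0.614 CPM (SD, n = 9) in old mice. On the log2 scale the difference was -0.23 (SE 0.0874, adjusted p = 0.0486). This call lay at the edge of the threshold. It held in 4 of the 19 fits that left out 1 library, with fold changes from -0.28 to -0.21 and adjusted p from 0.0140 to 0.105, and was lost with unscaled library totals (-0.18, adjusted p = 0.190), with no cull day term (-0.25, adjusted p = 0.0698), with a filter on a mean of 1 CPM (-0.22, adjusted p = 0.0706), on each cull day alone (-0.18, adjusted p = 0.477, and -0.29, adjusted p = 0.0839) and with the other-cell score in the model (-0.14, adjusted p = 0.417). Without the 3 young libraries it was -0.30 (adjusted p = 0.0223).

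Sirt5, which removes succinyl and malonyl groups from mitochondrial enzymes, was at 6.69, 9.36 and 11.7 CPM (lowest, median, highest) in young libraries and 6.99, 9.06 and 12.1 CPM in old ones. Its log2 fold change was -0.03 (SE 0.116, adjusted p = 0.849), and the 2 ages covered nearly one range. The sign of so small a value turned in several other fits.

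**Figure D2:**
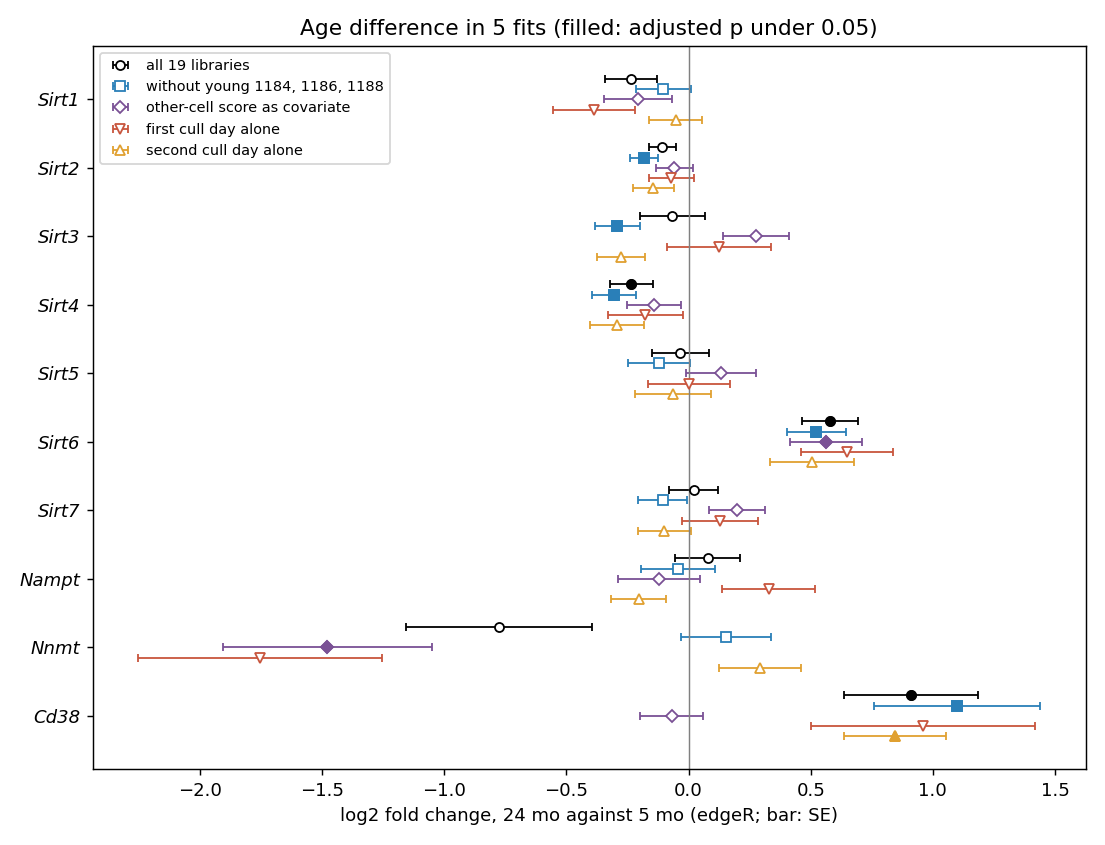
Log2 fold change of each gene, 24 mo against 5 mo (horizontal axis), in 5 edgeR fits, with the SE as a bar and filled symbols where the adjusted p was under 0.05. Sirt6 lies between 0.51 and 0.65 in all 5, Nnmt runs from -1.75 (first cull day) to 0.29 (second), and Cd38 falls from 0.91 to -0.07 when the other-cell score is in the model.

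Nampt, the rate-limiting enzyme that turns nicotinamide into the NAD precursor nicotinamide mononucleotide, did not pass the threshold. It was at 31.8, 42.0 and 57.7 CPM (lowest, median, highest) in young libraries and 36.7, 40.5 and 77.3 CPM in old ones. The highest value belonged to old 1187, and the other 8 old libraries lay between 36.7 and 50.0 CPM, within the young range. The log2 fold change was 0.08 (SE 0.134, adjusted p = 0.682). Fitted by cull day it was 0.33 (first) and -0.20 (second), a difference of -0.54 between days (SE 0.243, raw p = 0.0385, edgeR adjusted p = 0.745). Without the 3 young libraries and old 1187 it was -0.14 (SE 0.0945, adjusted p = 0.306).

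Sirt1 and Nampt are both known to be tied to the circadian clock, whose activators bind the E-box CACGTG, and the bases just before their start sites are shown for that reason. They are taken from RefSeq on GRCm38.p6, 5′ to 3′ on the gene's strand, with E-boxes in capitals. The Sirt1 run is chr10:63339051-63339285 on the minus strand, cut where an annotated exon begins, and the Nampt run is chr12:32820085-32820334 on the plus strand.
Sirt1: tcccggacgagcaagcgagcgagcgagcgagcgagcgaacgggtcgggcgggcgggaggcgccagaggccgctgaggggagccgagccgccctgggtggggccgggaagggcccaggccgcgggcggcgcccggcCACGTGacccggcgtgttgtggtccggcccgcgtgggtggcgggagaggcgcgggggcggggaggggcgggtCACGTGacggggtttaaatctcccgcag
Nampt: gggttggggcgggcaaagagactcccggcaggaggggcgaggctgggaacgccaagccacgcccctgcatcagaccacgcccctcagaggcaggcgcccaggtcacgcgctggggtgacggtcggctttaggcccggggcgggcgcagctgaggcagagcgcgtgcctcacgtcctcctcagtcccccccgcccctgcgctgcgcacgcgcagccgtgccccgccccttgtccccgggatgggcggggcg
Both stretches are rich in CpG, with 36 CpG in the 235 bases of Sirt1 and 27 in the 250 bases of Nampt, where the median over 32851 windows of 250 bases was 6. The Sirt1 stretch holds 2 E-boxes and the Nampt stretch none. An E-box, which reads the same on both strands, was found in 6.02% of the windows. RefSeq windows matched 9 of the 10 symbols, all but Nnmt, and among the 11 windows of those 9 genes that of Sirt1 was the only one with an E-box. A match shows letters in a window, not binding, and these libraries hold no measure of binding.

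Nnmt (chr9:48591877-48605123, minus strand), which uses S-adenosylmethionine to methylate nicotinamide, had the widest spread of the 10 genes, with a residual SD of log2 level of 0.733 (93.5th percentile of genes tested). On the first cull day the young libraries were at 49.9 (1180), 63.1 (1182), 284 (1184), 266 (1186) and 256 CPM (1188). The 5 old libraries of that day were at 54.4 (1181), 33.5 (1183), 36.5 (1185), 67.7 (1187) and 80.2 CPM (1189). On the second day the young libraries ran from 46.7 to 94.6 CPM and the old ones from 80.1 to 105 CPM. The high values were thus those of the 3 young libraries with high Saa1, and the other 16 libraries lay between 33.5 and 105 CPM. Young mice averaged 130 ± 97.2 CPM (SD, n = 10) against 71.3 ± 25.3 CPM (SD, n = 9) in old mice. The difference between ages was -0.78 on the log2 scale (SE 0.379, edgeR adjusted p = 0.127). It was -1.75 on the first day (adjusted p = 0.0696) and 0.29 on the second (adjusted p = 0.250). Without the 3 young libraries it was 0.15 (SE 0.183, adjusted p = 0.565), so the direction of the Nnmt difference rested on them. With the other-cell score in the model and all libraries kept, it was -1.48 (adjusted p = 0.0309).

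The Nnmt fold changes of the 2 days differed by 2.05 (SE 0.573, raw p = 0.00212), but the edgeR adjusted p was 0.638. DESeq2 gave 2.04 with an adjusted p of 0.0425. In edgeR no gene passed the threshold for this age by cull day term (0.0% of 12269, with 799 at a raw p under 0.05). In DESeq2 20 genes did (0.163% of the 12269 entered). DESeq2 gave no adjusted p for Sirt1, Sirt4, Sirt5, Sirt6, Sirt7 and Cd38. Its adjustment thus covered fewer genes than that of edgeR, and the adjusted p-values for Nnmt are not like for like.

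**Figure D3:**
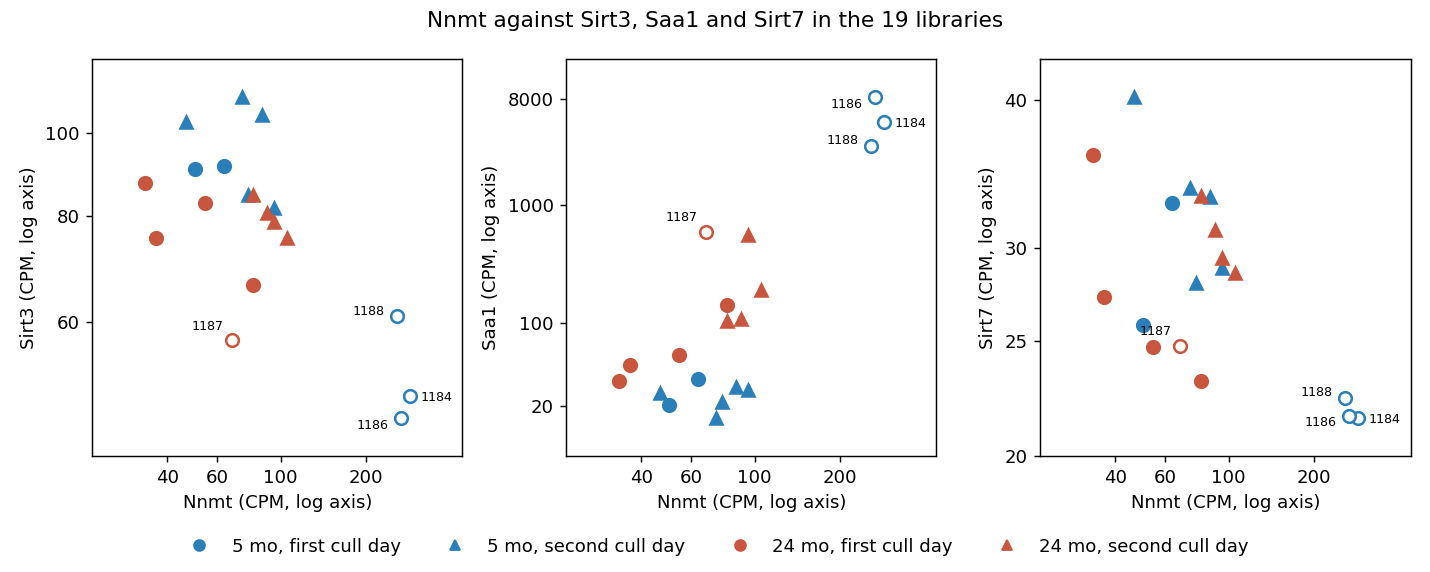
Level of Sirt3, Saa1 and Sirt7 (vertical axes) against Nnmt (horizontal axes) in the 19 libraries, all in CPM on log axes. Colour gives age, shape gives cull day, and open numbered symbols are young 1184, 1186 and 1188 and old 1187. The 3 young libraries lie at 256 to 284 CPM of Nnmt, with Saa1 at 3188 to 8281 CPM, Sirt3 at 46.4 to 61.0 CPM and Sirt7 at 21.5 to 22.4 CPM.

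Cd38 (chr5:43868809-43912374, plus strand) rose with age. It was at 4.20, 6.83 and 12.4 CPM (lowest, median, highest) in young libraries and 8.16, 12.2 and 41.5 CPM in old ones. Old 1187 stood far above the rest, the other 8 old libraries lay between 8.16 and 13.1 CPM, and 3 old libraries lay above all young ones. Young mice averaged 7.44 ± 2.62 CPM (SD, n = 10) against 14.3 ± 10.4 CPM (SD, n = 9) in old mice. The log2 fold change of Cd38 was 0.91 (SE 0.275, adjusted p = 0.0182). It passed the threshold in all 19 fits that left out 1 library, at 0.55 (without 1187, adjusted p = 0.0344) to 1.00, and without 1187 and the 3 young libraries it was 0.83 (adjusted p = 0.00153). The call was absent with the other-cell score in the model, where the log2 fold change was -0.07 (SE 0.130, adjusted p = 0.764). In that fit 9 of 12 macrophage markers, themselves part of the score, were lower in old mice. Library 1187 also held the highest summed macrophage markers (3313 CPM), and 12 of 12 macrophage markers rose with all libraries. Without 1187 alone 2 of 12 did, and without it and the 3 young libraries 12 of 12. The part of other cells in the Cd38 difference was not tested.

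Levels were compared between genes per kilobase of exon, as CPM per kb. In young mice Nnmt had the highest mean level, 129 ± 96.4 CPM per kb (SD, n = 10), followed by Sirt3 at 58.3 ± 16.2, Sirt2 at 24.6 ± 2.50 and Sirt7 at 16.9 ± 3.63. Nampt followed at 9.59 ± 1.58 and Sirt5 at 6.96 ± 1.18, and then Sirt4 at 3.75 ± 0.510, Sirt1 at 2.86 ± 0.640, Cd38 at 2.48 ± 0.873 and Sirt6 at 0.845 ± 0.121 CPM per kb. The median gene tested was at 4.60 CPM per kb, so 6 of the 10 genes lay above it. Nnmt and Sirt3 did not separate, since Nnmt was the higher in 6 of 10 young and 6 of 9 old libraries. Sirt4 lay above Sirt1 in 7 of 10 young and 8 of 9 old libraries. The steps from Sirt3 to Sirt2, Sirt2 to Sirt7 and Sirt5 to Sirt4 held in every library, while Sirt7 lay above Nampt in all 10 young and 8 of 9 old libraries.

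In old mice the order was the same except for Cd38, which at 4.75 ± 3.45 CPM per kb (SD, n = 9) moved from ninth to seventh place, above Sirt4 at 3.15 ± 0.397 and Sirt1 at 2.44 ± 0.390. Sirt1 was above Cd38 in 7 of 10 young libraries and in none of 9 old ones. Sirt6, at 1.26 ± 0.153 CPM per kb, stayed the lowest of the 10 in old mice.

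**Figure D4:**
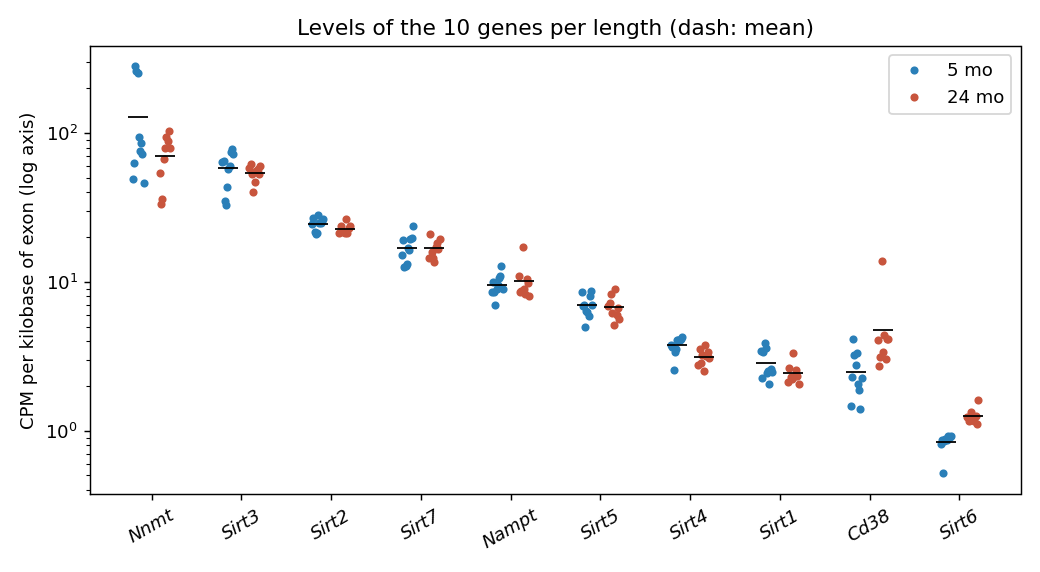
Level of each gene per kilobase of exon (CPM per kb, log axis) in each library, young (5 mo) and old (24 mo), with the mean as a dash and genes ordered by their young mean. Young means run from 129 for Nnmt to 0.845 for Sirt6, and Cd38 is the gene whose place changes most, from 2.48 in young to 4.75 in old mice.

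Some of the 10 genes varied together between mice of one age and cull day. Likeness is given as the Spearman correlation of log2 CPM over 19 libraries after the mean of each age and cull day was taken out, as a description, since the libraries share scaling and depth. Sirt3 and Sirt7 had a correlation of 0.83 and kept 0.70 without the 3 young libraries. Nnmt ran opposite to both, at -0.82 with Sirt3 and -0.83 with Sirt7, which became -0.60 for each pair without those libraries. Sirt3 and Cd38 were at -0.73, and at -0.59 without the 3 young libraries and -0.41 without old 1187 as well. Sirt2 and Nnmt, at -0.62, were at -0.15 without the 3. Over all 19 libraries Sirt6 had no correlation stronger than -0.34 with another of the 10, that value being with Sirt5. Without the 3 young libraries Sirt6 and Sirt1 were at -0.45, and without old 1187 as well Sirt6 and Sirt4 were at -0.51.

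The genes most like each member among 11125 compared were named by a rule. Those of Sirt3 were Cisd1 (0.98), Etfa (0.97) and Dpys (0.97), of which Cisd1 and Etfa encode mitochondrial proteins. Those of Sirt7 were Haus4 (0.92), Mrpl9 (0.92) and Mrpl14 (0.91), the last pair being proteins of the mitochondrial ribosome, and those of Sirt5 were Mterf4 (0.86), Echs1 (0.83) and Tmem35b (0.82). Nnmt ran with Serpina3n (0.96), Fgl1 (0.94) and Prg4 (0.93), secreted proteins of which Serpina3n is an acute phase protease inhibitor, and it kept 0.91, 0.88 and 0.86 without the 3 young libraries. Cd38 ran with Marcks (0.97), Ms4a6c (0.96) and Lbh (0.95), and these were themselves higher in old mice, by 1.58, 1.73 and 1.77 on the log2 scale. Sirt1 was most like Wipi2 (0.92), Spty2d1 (0.87) and Cipc (0.86), the last being a repressor of the clock protein Clock. Nampt was most like Igtp (0.81), an interferon-induced GTPase, with Dynlt3 (0.78) and Kifap3 (0.77). Without old 1187 these values were 0.62, 0.81 and 0.65, and without the 3 young libraries as well 0.49, 0.72 and 0.42. For Sirt2 the most alike were Ppp2r5d (0.82), Smad7 (0.80) and Gnas (0.79), and for Sirt4 B3gat2 (0.81), Vps72 (0.78) and Ypel5 (0.77). Without the 3 young libraries Sirt2 and Smad7 had a correlation of 0.31, and Sirt4 and B3gat2 one of 0.61, which was 0.40 without old 1187 as well. Sirt6 had the least alike neighbours, Vwa9 (0.75), Cenpa (0.68) and Fam219aos (0.65).

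In the other lists, counts are read beside the 30.9% of all genes that passed in either direction. Of 7 tested genes of the route from tryptophan to NAD, 4 fell and none rose, with a median log2 fold change of -0.42. Of the 4, 3 are enzymes on the way to NAD and 1, Acmsd, leads away from it. Ido2, Afmid and Haao did not pass, at -0.38, -0.29 and -0.16. Tdo2, which opens the route, was at 916 to 1858 CPM in young libraries and 469 to 988 CPM in old ones (log2 fold change -0.79, SE 0.111, adjusted p = 0.000114). Kmo and Kynu, further along it, fell by 0.56 (adjusted p = 0.000928) and 0.42 (adjusted p = 0.000708) on the log2 scale. Without the 3 young libraries Kmo was at -0.37 (adjusted p = 0.00249), Kynu at -0.33 (adjusted p = 0.00757) and Tdo2 at -0.88 (adjusted p = 0.000325). Acmsd, which draws the intermediate away from NAD, fell by 1.22 (adjusted p = 0.00097), from 20.3 ± 8.16 to 8.68 ± 2.53 CPM (SD, n = 10 and 9), and by 0.73 (adjusted p = 0.00299) without the 3 young libraries. All 4 also passed with the other-cell score in the model, at -0.64, -0.58, -0.40 and -1.52 for Tdo2, Kmo, Kynu and Acmsd.

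In NAD synthesis and salvage outside Nampt, 2 of 7 tested genes rose and 1 fell, a share near that of all genes. Nmnat3, the mitochondrial adenylyltransferase that completes NAD, rose from 5.08 ± 0.715 to 6.72 ± 0.770 CPM (log2 fold change 0.40, adjusted p = 0.00399), and Nadsyn1, which amidates the deamido precursor, rose by 0.21 (adjusted p = 0.0448). Qprt, which joins the tryptophan route to NAD, fell by 0.19 (adjusted p = 0.0398). Nadsyn1 and Qprt missed the threshold without the 3 young libraries, at 0.13 (adjusted p = 0.213) and -0.16 (adjusted p = 0.146), and passed in 4 and 6 of the 19 fits with 1 library left out.

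Among other NAD-consuming enzymes, Parp2 and Parp3, which add ADP-ribose at DNA breaks, rose by 0.50 (adjusted p = 0.00369) and 0.43 (adjusted p = 0.00238), and Parp1 fell by 0.20 (adjusted p = 0.0215), with 6 genes tested. None of the 3 passed with the other-cell score in the model, at 0.36 for Parp2 (adjusted p = 0.0961), 0.29 for Parp3 (adjusted p = 0.0912) and -0.20 for Parp1 (adjusted p = 0.128). Of 7 tested genes listed for breakdown or phosphorylation of nicotinamide and NAD, 4 fell and none rose. One of the 4, Nudt7, is known as a peroxisomal hydrolase of coenzyme A, not of NAD. It fell from 484 ± 86.3 to 256 ± 82.6 CPM (log2 fold change -0.92, adjusted p = 0.00097), and Nudt12, which cleaves NADH, was at -0.47 (adjusted p = 0.00283). The NAD kinases Nadk and Nadk2 were at -0.25 (adjusted p = 0.00423) and -0.36 (adjusted p = 0.0115). Nudt7 passed with the other-cell score in the model (-0.73, adjusted p = 0.0304), and Nudt12, Nadk and Nadk2 did not, at -0.35, -0.19 and -0.14. Of 4 tested transport genes, 2 fell, Slc25a51, the mitochondrial NAD carrier, by 0.44 (adjusted p = 0.00452) and Slc22a7, an organic anion transporter, by 0.92 (adjusted p = 0.000404). Without the 3 young libraries they were at -0.26 (adjusted p = 0.0408) and -0.66 (adjusted p = 0.00441).

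**Figure D5:**
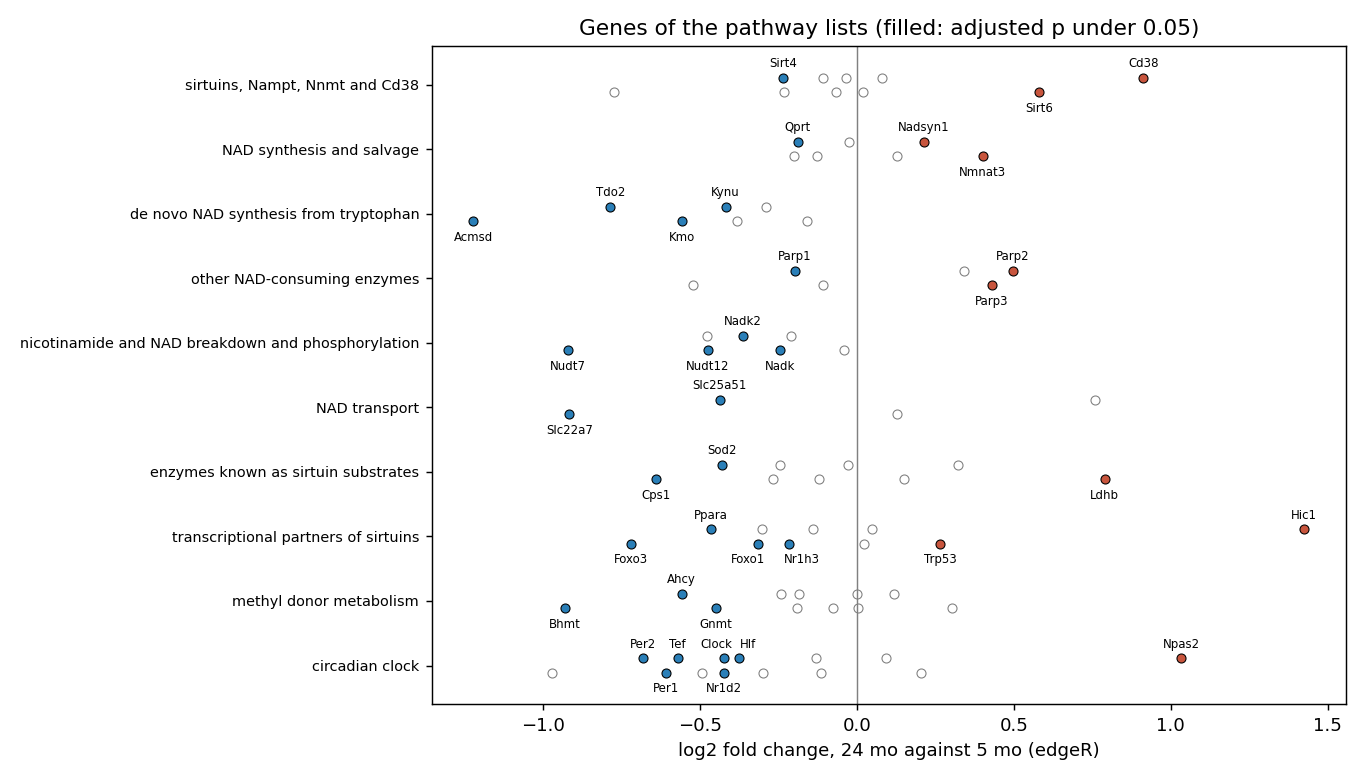
Log2 fold change, 24 mo against 5 mo (horizontal axis), of each tested gene in 10 lists (vertical axis), with named and filled symbols where the edgeR adjusted p was under 0.05, red for higher and blue for lower. In the tryptophan route 4 of 7 genes fell and none rose.

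Of 9 tested enzymes known as sirtuin targets, Sod2 and Cps1 fell and Ldhb rose, a share near the 30.9% of all genes. Sod2, the mitochondrial superoxide dismutase known as a Sirt3 target, was at 179 to 213 CPM in young libraries and 128 to 162 CPM in old ones, with no overlap (every old library below every young one in 0.725% of genes tested). Its log2 fold change was -0.43 (SE 0.0594, adjusted p = 9.38e-05). Cps1, the urea cycle entry enzyme and a Sirt5 target, fell from 4287 ± 905 to 2741 ± 637 CPM (-0.64, adjusted p = 0.00177). Ldhb rose from 1.24 ± 0.346 to 2.11 ± 0.849 CPM (0.79, adjusted p = 0.00424), and with the other-cell score in the model it was at 0.46 (adjusted p = 0.179).

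Of 10 transcription factors and coregulators that work with sirtuins, 4 fell and 2 rose. Foxo3 and Foxo1, transcription factors deacetylated by Sirt1, were at -0.72 (adjusted p = 0.0109) and -0.31 (adjusted p = 0.0176), and the nuclear receptors Ppara and Nr1h3 at -0.46 (adjusted p = 0.0348) and -0.22 (adjusted p = 0.0187). Ppara passed in 9 of the 19 fits with 1 library left out. With library totals unscaled, 1 of the 4 passed, and without the 3 young libraries 2 did. Nr1h3 alone passed with the other-cell score in the model, at -0.30 (adjusted p = 0.0255), while Foxo3, Foxo1 and Ppara were at -0.68 (adjusted p = 0.104), -0.29 (adjusted p = 0.128) and -0.12 (adjusted p = 0.715). Hic1, a repressor of Sirt1 transcription, rose from 1.04 ± 0.390 to 2.82 ± 1.90 CPM (1.42, adjusted p = 0.00229) and was at 0.37 (adjusted p = 0.184) with the other-cell score in the model. Trp53, the tumour suppressor p53 and a Sirt1 substrate, was the other to rise (0.26, adjusted p = 0.0375; passed in 7 of the 19 fits with 1 library left out), and is named outside the rule for named genes after its value was seen. In methyl donor metabolism, from which Nnmt draws, 3 of 11 tested genes fell and none rose: Bhmt by 0.93 (adjusted p = 0.000535), Ahcy by 0.56 (adjusted p = 0.00133) and Gnmt by 0.45 (adjusted p = 0.00676) on the log2 scale. Bhmt alone passed with the other-cell score in the model, at -0.98 (adjusted p = 0.00871), and Ahcy and Gnmt were at -0.34 (adjusted p = 0.0715) and -0.28 (adjusted p = 0.199).

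Of 14 tested clock genes, 6 fell and 1 rose. Per2, a repressor of the clock, was at 6.96 ± 2.36 CPM in young (SD, n = 10) and 4.30 ± 0.796 CPM in old libraries (SD, n = 9; log2 fold change -0.68, adjusted p = 0.00799). Tef, Nr1d2, Clock and Hlf were at -0.57, -0.42, -0.42 and -0.37. Npas2, a relative of Clock, rose (1.03, adjusted p = 0.0396) and the repressor Per1 fell (-0.61, adjusted p = 0.0335), both named outside the rule after their values were seen. Npas2 passed in 10 and Per1 in 12 of the 19 fits with 1 library left out. On the first cull day alone no clock gene passed (3.67% of all genes), and on the second alone 6 fell (19.3%). By day, first and second, Per2 was at -0.36 and -1.04, Tef at -0.36 and -0.81 and Hlf at -0.25 and -0.51. Nr1d2 was at -0.43 and -0.41, and Clock at -0.49 and -0.34. With the other-cell score in the model none of the 14 passed. Per2 was then at -0.69 (adjusted p = 0.0550), Nr1d2 at -0.42 (adjusted p = 0.0868) and Tef at -0.46 (adjusted p = 0.154), and Clock and Hlf were at -0.25 and -0.12. The hour of each cull was not given in the labels used here.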

How the data were processed

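Poly(A) RNA of hepatocytes from 10 young and 9 old mice was analysed from the authors' deposited table of estimated counts per gene. Per the file headers, HOMER's analyzeRepeats.pl counted reads over exons on mm10, condensed transcripts to genes and left the counts raw. The submitters' processing notes also name STAR and GRCm38. Versions, the strand setting and the handling of reads with several matches were not given in the sources used here. The deposited values are multiples of 0.5, 29.2% of them not whole. They were rounded to whole counts, although the tests had been planned for plain counts. Of the 24537 genes, 6045 had no read. Column headers carry a larger total, of which 78.3% to 86.5% lay in genes.

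Age was tested with edgeR 4.0.16 in R 4.3.3: quasi-likelihood test, TMM scaling, filterByExpr by age with a minimum count of 10, cull day in the model, and p-values adjusted over 12269 genes by Benjamini-Hochberg, with a threshold of 0.05. CPM are counts scaled to a common total after TMM. The standard error is the absolute log2 fold change over the square root of F. Exact two-sided permutation tests compared mean log2 CPM (prior count 2) within cull days. Alternatives were other scaling, totals and filters, unrounded counts, DESeq2 1.42.0, limma 3.58.1 (voom with sample weights), no cull day, each cull day alone, a covariate (the mean log2 CPM of 38 macrophage, endothelial, stellate and lymphocyte markers, the other-cell score), and leaving out libraries. The labels do not mark 1184, 1186 and 1188 off from the other young libraries of their cull day, so leaving them out rests on levels in these data. Leaving them out together with 1187 was added after seeing the data. The fits were tested on simulated data. Nothing in the labels says in words that the libraries are separate animals, so p-values measure the spread between these libraries.

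The 10 genes and all lists were chosen with earlier results of these data known. Besides the 10, named genes were up to 5 genes with the smallest p past the threshold in each list, for each marker list the smallest p and the 2 highest levels, and the 3 genes most alike each of the 10 (mean of at least 1 CPM, no predicted or clone names). Promoter windows came from RefSeq on GRCm38.p6 and exon overlaps from GENCODE. Figures used matplotlib 3.10.9. Counting error alone allows up to 3 counts behind a value of 0.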

Additional observations from a re-analysis of the deposited data

Results flagged for a closer look

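In 7 of the 20 groups (10 genes, each age) one library lay far from the others by Dixon's test, where chance gives about 1 in 20. The same held for 12.5% of such groups over all genes tested, 7.33% in young and 17.8% in old mice. Old 1187 was high for Nampt, at 77.3 CPM with the next old library at 50.0 CPM, and for Cd38, at 41.5 CPM with the next at 13.1 CPM. It also held the highest summed macrophage markers of all libraries, and the part of that in these values was not tested. Young 1184, one of the 3 libraries with high Saa1, was low for Sirt6, at 0.875 CPM (16 counts) with the next young library at 1.37 CPM, and for Sirt4, at 3.94 CPM with the next at 5.24 CPM. Old 1242 was high for Sirt6, at 2.74 CPM with the next old library at 2.27 CPM. Old 1189 was high for Sirt1, at 13.0 CPM with the next at 10.3 CPM, and old 1236 was high for Sirt2, at 48.9 CPM with the next at 43.7 CPM.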

How the results depend on the processing

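Over all genes, 3785 passed the threshold with every library, and between 3014 and 3949 with any 1 library left out. The count was 1412 with the other-cell score in the model, 450 on the first cull day alone and 2389 on the second. Of the 10 genes, 2 to 3 passed with any 1 library left out, 0 on the first cull day, 1 (Cd38) on the second, 5 without young 1184, 1186 and 1188, and 5 without these and old 1187. The age by cull day term passed for no gene in edgeR and for 20 genes in DESeq2, which adjusted over fewer genes.

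Signs turned for 6 of the 10 genes, among them Cd38 and Nnmt, whose log2 fold changes with all libraries were the largest of the 10 in size. With the other-cell score in the model the log2 fold change was 0.28 for Sirt3, 0.13 for Sirt5, -0.12 for Nampt and -0.069 for Cd38. On the first cull day alone it was 0.12 for Sirt3 and 0.0017 for Sirt5, and on the second -0.10 for Sirt7, -0.20 for Nampt and 0.29 for Nnmt. Without the 3 young libraries it was -0.11 for Sirt7, -0.044 for Nampt and 0.15 for Nnmt, and without old 1187 as well -0.10, -0.14 and 0.12. In limma-voom it was 0.012 for Sirt5, -0.013 for Sirt7 and -0.030 for Nampt. Unscaled library totals gave 0.010 for Sirt5, no filter gave -0.012 for Sirt7, and no cull day term gave -0.0067 for Sirt7. With any 1 library left out, values ran from -0.099 to 0.014 for Sirt5, from -0.048 to 0.073 for Sirt7 and from -0.054 to 0.13 for Nampt. In the permutation tests the difference of mean log2 CPM was 0.0039 for Sirt5 with unscaled totals, and without the 3 young libraries -0.10 for Sirt7, -0.016 for Nampt and 0.10 for Nnmt. The cause of these turns was not tested.

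Sirt6 kept its direction in every fit run and missed the threshold in the fits of single cull days, which hold fewer libraries. Sirt1 passed, lower in old mice, in 2 of the 19 fits with 1 library left out (those without young 1182 and without old 1189), with adjusted p from 0.0408 to 0.175 over the 19. Unscaled library totals moved the median of all genes to 0.04 and the split to 2098 higher and 1169 lower, against 2005 and 1780. Relabelling over all mice used all 92378 splits in place of the planned random draws. No paired analysis was possible because the library numbers are not shared between the ages. Sirt6 had the lowest counts of the 10 genes, with 16 to 52 a library.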

Other observations

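Markers of cells that are rare in these libraries were mostly too low to test. Of the lymphocyte markers 2 were tested and both rose, Ptprc (CD45) from 3.20 ± 2.12 to 10.9 ± 14.7 CPM and Jchain from 0.490 ± 0.603 to 1.97 ± 1.63 CPM (SD, n = 10 young and 9 old). Without old 1187 the old mean of Ptprc was 6.03 ± 2.59 CPM (SD, n = 8) and its call was lost (log2 fold change 0.91, adjusted p = 0.0669, against 1.72 with all libraries). Of the neutrophil markers 1 was tested, Csf3r, which rose from 0.464 ± 0.392 to 1.92 ± 2.53 CPM, and without old 1187 was at 1.10 ± 0.655 CPM in old mice and missed the threshold (adjusted p = 0.0505). Neither of 2 tested cholangiocyte markers passed with all libraries. Sox9, one of them, went from a log2 fold change of 0.32 (adjusted p = 0.410) to 0.63 (adjusted p = 0.0317) without young 1186 and 0.94 (adjusted p = 0.0035) without all 3 young libraries that stood apart. Of the 10 hepatocyte markers 2 rose, Alb (not without the 3 young libraries) and Apoa1, and 4 fell, among them Tat, an amino acid-degrading enzyme, by 1.10 on the log2 scale (adjusted p = 0.000324).

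The NRF1 core GCATGCGC was found on either strand in 2.26% of RefSeq promoter windows of 250 bases. A window of Sirt6 held 2 overlapping matches, the other Sirt6 window held none, and the window of Sirt7 held 1. Annotated exons overlap these windows. The exon-free run kept from the Sirt6 window with matches was bases 1 to 19, and the matches lie at bases 108 to 117. No exon-free run was kept from the Sirt7 window.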
